A study of Mus musculus with 6 samples.

Results

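The 10 genes described here encode the Notch receptors Notch1, Notch2, Notch3 and Notch4, the ligands Jag1, Jag2, Dll1 and Dll4, and the target genes Hes1 and Hey1. They were taken by gene symbol from a deposited expression table of 22564 protein-coding genes, and all 10 were found. RNA came from EOMA, an established mouse endothelioma line, grown at normal oxygen. One group of 3 libraries had received the solvent DMSO for 24 h, and the other group of 3 had received 2 µM DHTS for 24 h. DHTS is 15,16-dihydrotanshinone I, a plant diterpenoid quinone, and the series title links it to infantile hemangioma and hypoxia-inducible factor 1. The comparison asked how the compound changed transcript levels. Whether separate cultures were used for the replicates is not in the labels, and p-values here rest on a spread between libraries that may be technical alone.

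Notch signalling passes between touching cells. A ligand of the Jagged or Delta-like family on one cell binds a receptor on its neighbour, the receptor is cut by an ADAM protease and then by gamma-secretase, and the freed intracellular part joins the DNA-binding protein RBPJ in the nucleus to switch on Hes and Hey genes. In blood vessels Notch1 and Notch4 are typical of endothelium, Notch3 is typical of pericytes and smooth muscle, Dll4 and Jag1 act against each other in sprouting, and Hes1 and Hey1 are direct targets that encode repressors.

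Levels are FPKM, which scale fragments to transcript length and library size, as the authors deposited them. A gene was tested when its mean over the 6 libraries reached 1 FPKM, which 7 of the 10 genes and 11416 genes in all did. Libraries held about 9343370 to 12255300 estimated fragments on genes. Tests were made with limma on log2(FPKM + 1), and every fold change printed as log2 is on that scale unless stated, which understates the change of low genes. Adjusted p-values are Benjamini-Hochberg values over all genes tested, with a threshold of 0.05, and ± gives the SD over the 3 libraries of a group.

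Promoter sequences are shown for Notch3 and Jag2, the 2 tested genes with the largest rise on log2(FPKM + 1), and for Jag1, which fell. They come from RefSeq on GRCm38.p6, the assembly also called mm10, and cover the 250 bases before the RefSeq start in the sense of the gene. Capitals mark the GC box GGGCGG on either strand, the motif bound by SP1-type factors, and neighbouring boxes may overlap. Notch3 is at chr17:32166891-32167140 on the minus strand, Jag2 at chr12:112929496-112929745 on the minus strand, and Jag1 at chr2:137116521-137116770 on the minus strand.
Notch3: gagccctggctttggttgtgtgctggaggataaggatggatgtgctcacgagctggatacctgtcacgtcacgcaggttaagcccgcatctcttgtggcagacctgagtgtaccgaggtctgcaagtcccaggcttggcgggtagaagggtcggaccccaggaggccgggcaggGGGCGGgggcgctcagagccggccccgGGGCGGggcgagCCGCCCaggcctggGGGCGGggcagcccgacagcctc
Jag2: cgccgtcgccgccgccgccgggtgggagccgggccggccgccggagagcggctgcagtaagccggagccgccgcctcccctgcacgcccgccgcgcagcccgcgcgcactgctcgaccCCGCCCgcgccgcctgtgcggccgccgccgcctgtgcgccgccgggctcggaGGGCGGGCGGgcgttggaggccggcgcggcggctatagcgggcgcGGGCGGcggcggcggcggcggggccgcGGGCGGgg
Jag1: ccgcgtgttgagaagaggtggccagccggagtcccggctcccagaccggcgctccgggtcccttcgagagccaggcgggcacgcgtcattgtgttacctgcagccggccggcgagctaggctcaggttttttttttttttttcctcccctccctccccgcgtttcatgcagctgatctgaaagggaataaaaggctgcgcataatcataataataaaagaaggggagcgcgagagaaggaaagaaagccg
The Notch3 sequence held 4 GC boxes and was 68.8% G and C, with 17 CG dinucleotides. The Jag2 sequence held 5 boxes and was 87.2% G and C, with 54 CG dinucleotides. No GC box was found before Jag1, which was 57.2% G and C with 20 CG dinucleotides. Notch2, which fell, and Notch1, which rose, had 5 boxes each in this window, and Notch2 was 72.0% G and C with 34 CG dinucleotides. The Notch1 window (26503823 to 26504072), the Jag2 window and the Dll1 window at 15375824 to 15376073 lie inside the GENCODE spans of their genes. Those of Jag1, Notch2 and Notch4 reach into the spans of theirs. The windows of Notch3 and Dll4, and the Dll1 window at 15376933 to 15377182, lie before them. Whether these windows hold the promoters in use, and the part of GC boxes in the changes, was not tested. Dll4 had 2, and none was found before Notch4 or Dll1. Among 32851 mouse promoters of this length in the RefSeq table, 32.7% held the box, and the medians were 52.4% G and C and 6 CG dinucleotides. The core TGGGAA of the RBPJ site, searched on both strands, was in 0 of the 9 promoters matched for 8 of the genes, against 21.6% of all promoters. RefSeq promoters of Hes1 and Hey1 were not used here.

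DHTS-treated cells carried far more Notch3 and about 2.09 times as much Jag2 as DMSO cells, somewhat more Notch1, and less Notch2 and Jag1. Of the 7 tested genes 3 rose (Notch1, Notch3 and Jag2), where 28.2% of all tested genes did, and 2 fell (Notch2 and Jag1), where 21.9% did. Jag1, at means of 1.62 FPKM with DMSO and 0.698 with DHTS, reached the filter only through its DMSO values. It could thus enter this test only as a lower gene. Without the filter Jag1 passed too (limma adjusted p = 0.00386), as 36.6% of the 16184 genes then tested did. With Jag1 included, 5 of 7 passed in the main test, against a background of 50.1% of tested genes. Quantile normalization kept these 5 calls while turning the split of all called genes from 56.3% higher to 42.8% higher. The median log2 fold change of the 7 was 0.48, and that of all tested genes was 0.03. Groups did not overlap in these 5 genes, where 59.8% of all tested genes showed no overlap. The target gene Hes1 and the ligand gene Dll1 did not pass, and Notch4, Dll4 and Hey1 stayed under 1 FPKM on average. All 5 calls held in every alternative in which the gene was tested.

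**Figure D1:**
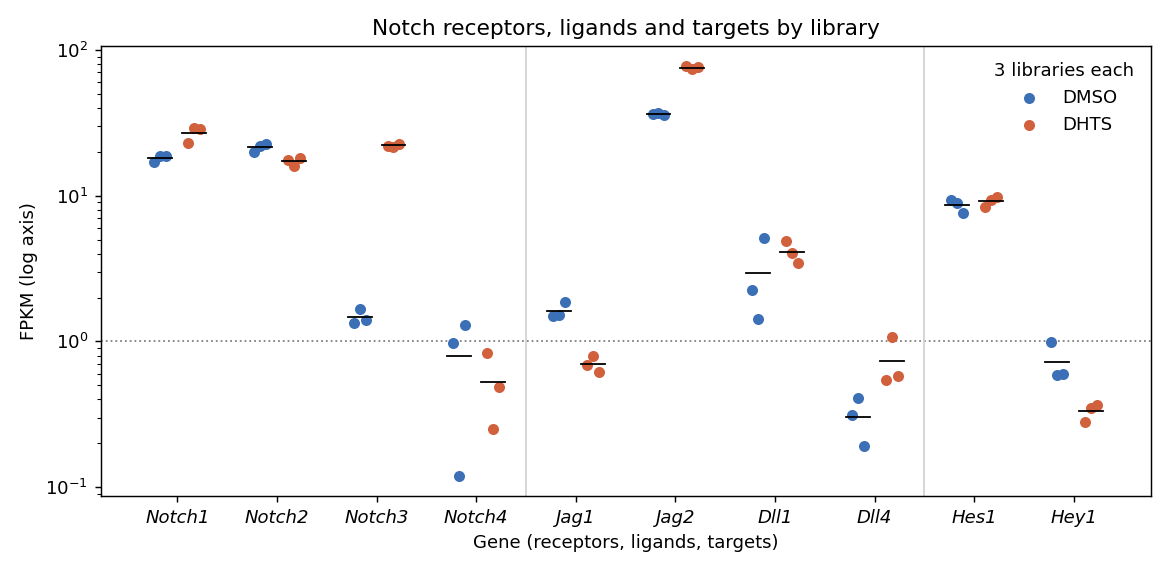
FPKM of each Notch gene on a log axis, with 1 point per library (3 DMSO, 3 DHTS), a black line at the group mean and a dotted line at 1 FPKM. Notch3 moves from 1.35 to 1.67 FPKM with DMSO to 21.7 to 22.8 with DHTS, Jag2 from 35.7 to 36.8 to 74.1 to 77.0, and the Hes1 groups overlap.

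Notch3 encodes a receptor with a short activation domain whose mutation in people causes a small-vessel disease of the brain. The gene (ENSMUSG00000038146) lies on chromosome 17 at 32120820 to 32166852 on the minus strand (mm10, GENCODE). DMSO libraries held 1.35, 1.67 and 1.40 FPKM and DHTS libraries 22.0, 21.7 and 22.8 FPKM. The groups were far apart, with little spread in either. The group means of 1.47 ± 0.171 and 22.2 ± 0.554 FPKM differ by a factor of 15.1, and the log2 fold change was 3.23 (SE 0.08, limma adjusted p = 3.03e-07). These levels rested on 116, 137 and 144 estimated fragments with DMSO and on 1925, 2029 and 1785 with DHTS. On log2(FPKM + 1) low genes with larger ratios can rank below Notch3, as Tbx2 did (means of 0.033 and 8.57 FPKM, log2 fold change 3.21). Among all tested genes 56 had a larger rise on that scale, and 42 of those were listed at exactly 0 in every DMSO library, which left 14 others above Notch3. Such zeros need not be measurements: Rpl13, a ribosomal protein gene that every cell uses, was listed at 0 in every DMSO library and at a mean of 1203 FPKM with DHTS, and Aprt, a housekeeping enzyme gene, at 0 and 283.5 FPKM. Notch3 itself was above 0 in all 6 libraries. An antisense gene, Gm17276, overlaps Notch3, and the labels' protocols do not state whether reads kept their strand, so fragments of both cannot be told apart.

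Notch1 and Notch2, the most widely expressed receptors, moved in opposite directions. Notch1 (ENSMUSG00000026923), on chromosome 2 at 26457903 to 26516663 on the minus strand, measured 17.1, 18.8 and 18.7 FPKM in DMSO libraries and 22.9, 29.1 and 28.6 FPKM in DHTS libraries. The lowest DHTS library was above the highest DMSO library, and the log2 fold change was 0.53 (SE 0.10, limma adjusted p = 0.00388). Notch2 (ENSMUSG00000027878), on chromosome 3 at 98013527 to 98150361 on the plus strand, measured 19.8, 22.1 and 22.5 FPKM without the compound and 17.6, 16.0 and 18.0 FPKM with it. All DHTS values lay below all DMSO values, and the fall was −0.30 on the log2 scale (SE 0.07, limma adjusted p = 0.0118). Notch2 was above Notch1 in each DMSO library and below it in each DHTS library.

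Notch4, a receptor gene first known from mammary tumours in mice and typical of endothelium, was low and uneven. The gene (ENSMUSG00000015468) lies on chromosome 17 at 34564268 to 34588503 on the plus strand. Its levels were 0.974, 0.120 and 1.30 FPKM with DMSO and 0.835, 0.250 and 0.483 FPKM with DHTS, from 8 to 24 fragments per library. The groups overlapped, and the gene was below the filter. Without the filter its log2 fold change was −0.19 (limma adjusted p = 0.655), while on scaled fragments the sign turned to 0.58 (SE 0.36, adjusted p = 0.167).

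The make-up of the receptor pool changed with these shifts. Notch3 accounted for 3.51 ± 0.365% of the summed FPKM of the 4 receptors with DMSO and for 33.3 ± 1.34% with DHTS. Notch2 went from 51.2 ± 0.611% to 25.8 ± 1.97%, and Notch1 from 43.4 ± 0.714% to 40.2 ± 3.71%. The sum itself was 39.2 to 43.9 FPKM with DMSO and 63.3 to 69.9 FPKM with DHTS. In DHTS libraries Notch3 was 0.745 to 0.963 times Notch1 and 1.25 to 1.36 times Notch2, whereas with DMSO it was at most 0.0887 times Notch1. These shares describe transcripts per length, and no test was made on them.

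**Figure D2:**
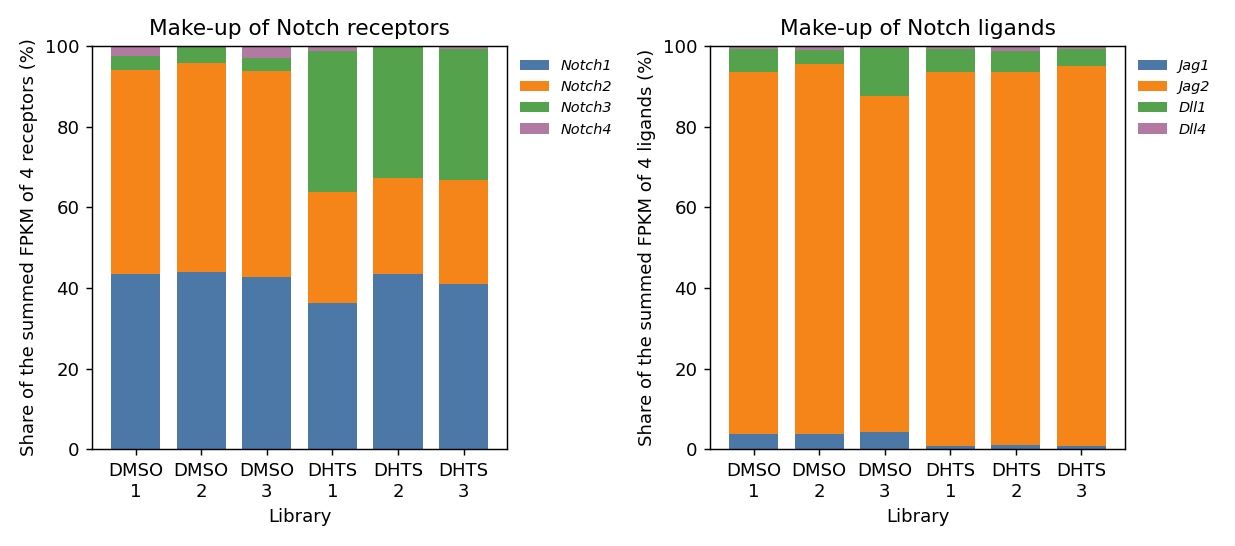
Share (%) of each gene in the summed FPKM of the 4 receptors (left) and of the 4 ligands (right), with 1 bar per library. Notch3 fills 3.19% to 3.91% of the receptor bars with DMSO and 32.4% to 34.8% with DHTS, and Jag2 fills 83.3% to 94.2% of all ligand bars.

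Jag2 was the most abundant of the 10 genes in every library. It encodes a Jagged ligand and lies on chromosome 12 at 112907819 to 112929776 on the minus strand (ENSMUSG00000002799). Levels were 36.2, 36.8 and 35.7 FPKM with DMSO and 77.0, 74.1 and 75.9 FPKM with DHTS. The groups lay far apart relative to their SDs of 0.538 and 1.47 FPKM, with a log2 fold change of 1.04 (SE 0.04, limma adjusted p = 1.5e-06). From 1468 to 1781 fragments supported each DMSO value and 2878 to 3355 each DHTS value.

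Jag1, the other Jagged ligand and a strong ligand of endothelium and smooth muscle, went the opposite way from a far lower level. The gene (ENSMUSG00000027276) lies on chromosome 2 at 137081456 to 137116644 on the minus strand. Control libraries held 1.49, 1.51 and 1.87 FPKM of it and treated libraries 0.684, 0.796 and 0.615 FPKM. No DHTS library reached the lowest DMSO value, and the log2 fold change was −0.63 (SE 0.12, limma adjusted p = 0.00498), from 79 to 132 fragments per DMSO library and 33 to 51 per DHTS library. The ratio of Jag2 to Jag1 FPKM was 24.3, 24.4 and 19.1 with DMSO and 113, 93.1 and 124 with DHTS, so the ligand genes were further apart in every treated library.

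The Delta-like ligand gene Dll1 gave a different answer on the 2 deposited scales. It encodes a ligand of the Delta-like family and lies on chromosome 17 at 15367354 to 15376872 on the minus strand (ENSMUSG00000014773). Its FPKM were 2.25, 1.44 and 5.12 with DMSO and 4.90, 4.03 and 3.44 with DHTS. DMSO replicate 3 was the highest of all 6 libraries, the groups overlapped, and the gene did not pass (log2 fold change 0.48, SE 0.32, limma adjusted p = 0.253). Without DMSO replicate 3 it did (0.85, adjusted p = 0.0128, where alternatives ranged from 1.21e-06 to 0.619). Estimated fragments were 53, 50 and 81 with DMSO and 148, 125 and 114 with DHTS, so the groups did not overlap on that scale. Scaled to equal library size, the fragments gave a log2 fold change of 1.15 (SE 0.15, limma adjusted p = 1.21e-06).

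Dll4, the ligand that leads endothelial sprouts, was near the floor. The gene (ENSMUSG00000027314) lies on chromosome 2 at 119325784 to 119335962 on the plus strand. The table lists 0.314, 0.410 and 0.193 FPKM under DMSO and 0.540, 1.08 and 0.575 FPKM under DHTS. The groups did not overlap, but the values rest on 5 to 15 fragments with DMSO and on 18 to 21 with DHTS. Without the filter on low genes Dll4 did not pass (log2 fold change 0.40, limma adjusted p = 0.0669), while on scaled fragments it did, with a log2 fold change of 0.99 (SE 0.41, adjusted p = 0.0410). Together the 4 ligands summed to 40.2 to 42.9 FPKM with DMSO and to 80.0 to 83.2 FPKM with DHTS, and Jag2 made up 88.3 ± 4.42% and 93.2 ± 0.935% of those sums.

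Hes1, the repressor gene most often read as an output of Notch signalling, lies on chromosome 16 at 30064384 to 30067796 on the plus strand (ENSMUSG00000022528). DMSO libraries gave 9.31, 8.85 and 7.54 FPKM, and DHTS libraries gave 8.31, 9.32 and 9.81 FPKM. The groups overlapped and the gene did not pass (log2 fold change 0.09, SE 0.10, limma adjusted p = 0.501). Over 15 alternatives its fold change ran from −0.04 under quantile normalization to 0.15, with adjusted p from 0.303 to 0.960. Fragments numbered 89 to 111 per library.

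Hey1, the target gene typical of arterial endothelium, had low levels in both groups. The gene (ENSMUSG00000040289) lies on chromosome 3 at 8663359 to 8667256 on the minus strand. Its levels were 0.995, 0.593 and 0.595 FPKM in control libraries and 0.280, 0.349 and 0.366 FPKM in treated ones, and the groups did not overlap. The values rest on 21, 12 and 15 fragments with DMSO and on 6, 8 and 7 with DHTS. Being under 1 FPKM it was outside the main test. Without the filter it passed, as 36.6% of the 16184 genes then tested did (log2 fold change −0.37, SE 0.10, limma adjusted p = 0.0356), and it also passed on scaled fragments (−1.01, SE 0.40, adjusted p = 0.0343).

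Ordered by level, DMSO cells had Jag2 first, then Notch2, Notch1, Hes1, Dll1, Jag1, Notch3, Notch4, Hey1 and Dll4. Neighbouring ranges overlapped for Dll1 and Jag1, for Jag1 and Notch3, and for Notch4 and Hey1. With DHTS the order was Jag2, Notch1, Notch3, Notch2, Hes1, Dll1, Dll4, Jag1, Notch4 and Hey1. There the ranges of neighbours overlapped for Dll4 and Jag1, for Jag1 and Notch4, and for Notch4 and Hey1. Notch3 thus moved from place 7 to place 3, and Jag2 kept place 1.

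The table holds a second set of columns, headed as counts, with estimated fragments scaled to equal library size, which were tested as log2(value + 1). All 60 values of the 10 genes came back as whole fragments, within 0.1, once each library was divided by its own step. On this scale 8 of the 10 genes passed, 5 higher and 3 lower, where 62.5% of the 11930 genes tested passed, 33.9% higher and 28.6% lower. An overlapping gene on the opposite strand is annotated for Notch1, Notch3, Notch4, Dll1 and Dll4. The 3 genes added were Dll1, Dll4 and Hey1, and Notch4 (0.58, adjusted p = 0.167) and Hes1 (0.10, adjusted p = 0.534) did not pass in limma. Notch3 had a log2 fold change of 3.91 (SE 0.07), Jag1 of −1.17 (SE 0.18) and Notch1 of 0.36 (SE 0.04) there. The quotient of FPKM and scaled fragments would be the same in every library for a gene of fixed transcript length. It varied between libraries by a factor of 6.20 for Notch4, 2.76 for Dll1, 2.50 for Dll4, 1.30 for Hes1 and 1.28 for Notch1, and by 1.00 to 1.08 for the other 5. GENCODE lists 12 transcripts for Notch4, 6 for Dll1 and 2 for Dll4, and the part of transcript choice in these factors was not tested. A factor over 1.5 was found in 8.52% of 11286 tested genes.

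**Figure D3:**
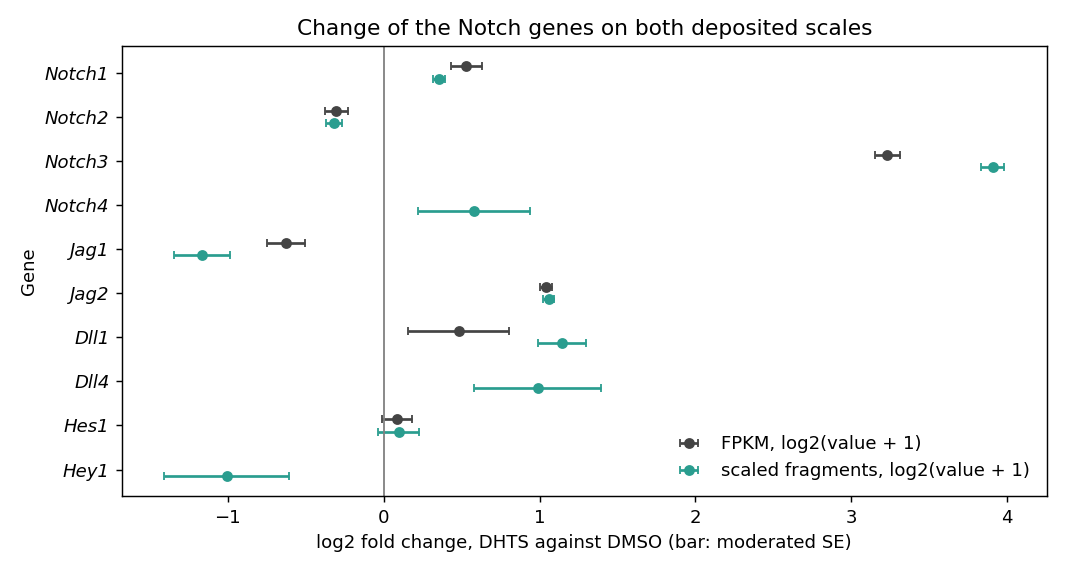
log2 fold change of DHTS against DMSO for each gene, with the moderated SE as bar, from FPKM (black, 7 tested genes) and from scaled fragments (green, all 10 genes). Notch3 stands at 3.23 and 3.91, Hes1 near 0 on both, and Dll1 at 0.48 and 1.15.

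**Figure D4:**
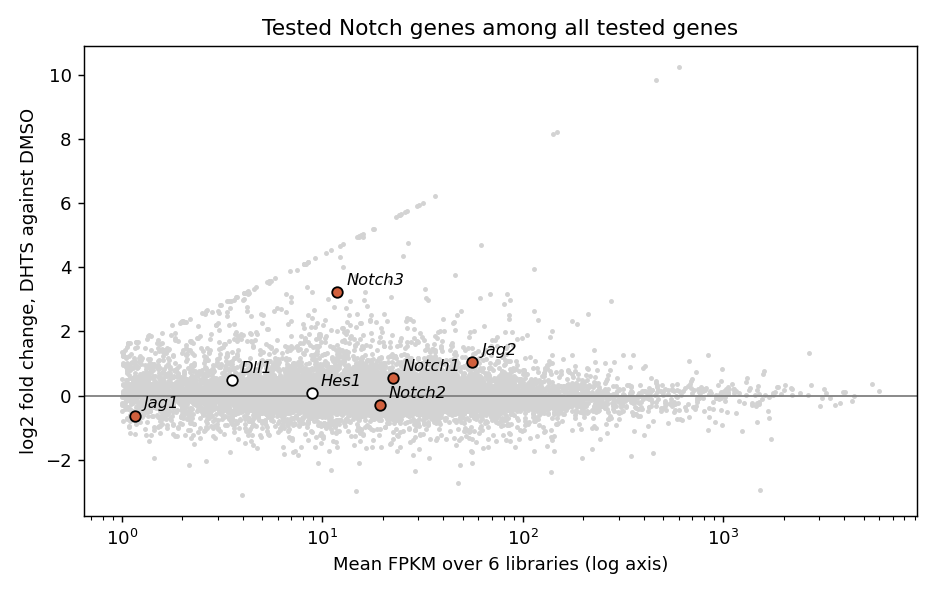
log2 fold change (vertical) against mean FPKM over 6 libraries (log axis) for all 11416 tested genes in grey, with the 7 tested Notch genes outlined and filled where they passed. Notch3, at 3.23, lies above all but 56 genes, and the straight upper edge is formed by genes listed at 0 with DMSO.

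Around these genes, 68 other genes of the pathway were looked up in 7 lists by role. Of the 53 that were tested 9 rose, 13 fell and 31 did not pass, and 22 of 53 can be read against the 50.1% of all tested genes that were called. Their median log2 fold change was −0.09. Of the cleavage enzymes 1 of 9 tested fell and none rose, where 21.9% of all tested genes fell and 28.2% rose. Their median was −0.12. The one that fell was Adam10, which makes the first cut in the receptor and went from 27.7 ± 1.40 to 23.7 ± 1.37 FPKM (−0.22, limma adjusted p = 0.0261). Leaving out DMSO replicate 2 (adjusted p = 0.0586), DMSO replicate 3 (0.0838), DHTS replicate 2 (0.0769) or DHTS replicate 3 (0.0629) ended the Adam10 call. A replicate block ended it as well (0.0517), and its alternatives spanned 0.000367 to 0.0838. Among 4 tested enzymes that put sugars on the receptor, Poglut1, which adds glucose, rose by 0.33 and Lfng, the fringe enzyme that shifts receptors towards Delta-like ligands, fell by 0.25, at a list median of 0.12. The Lfng call (adjusted p = 0.0237) ended when DMSO replicate 3 (0.0768), DHTS replicate 1 (0.05, at the threshold) or DHTS replicate 3 (0.0666) was left out. It also ended with a replicate block (0.0623), and alternatives spanned 0.00436 to 0.0768.

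Genes of ligand endocytosis, the step by which the sending cell pulls on the receptor, had 3 of 7 lower and none higher, with a median of −0.16, where 21.9% of all tested genes were lower and 28.2% higher. Neurl3, a Neuralized-type ubiquitin ligase gene, fell from 64.3 ± 1.16 to 31.0 ± 0.153 FPKM (−1.03, SE 0.04, limma adjusted p = 1.66e-06). Epn2, an epsin of clathrin-coated pits, fell by 0.72 and Neurl1b by 0.47. The call of Neurl1b (adjusted p = 0.0217) ended when DHTS replicate 1 (0.0665) or DHTS replicate 2 (0.0657) was left out, and alternatives spanned 1.02e-06 to 0.0665. Of 10 tested genes of receptor turnover, whose median was −0.04, 8 did not pass, where 50.1% of all tested genes passed. Fbxw7, part of the ubiquitin ligase that ends the signal in the nucleus, rose by 0.49 (adjusted p = 0.00603), and the ligase gene Itch fell by 0.39 (adjusted p = 0.00147).

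Among nuclear partners and corepressors 4 of 19 rose and 7 fell, beside 28.2% and 21.9% of all tested genes, and the list median was −0.04. Maml3, a coactivator of the Mastermind family, rose from 1.47 ± 0.0432 to 3.16 ± 0.155 FPKM (0.75, SE 0.09, limma adjusted p = 0.000592). Tle2 and Tle1, corepressors that Hes proteins recruit, fell by 0.98 and 0.54. Tle3 and Tle4, added after their values were seen, went the other way. They rose by 0.48 (limma adjusted p = 0.00259) and 0.29 (adjusted p = 0.0404), and the Tle4 call held in 6 of 14 alternatives. Rbpj itself, picked out after its values were seen, stood at 36.7 ± 3.64 and 31.9 ± 0.956 FPKM without overlap and did not pass (−0.19, adjusted p = 0.0670), but it passed in 5 of 15 alternatives: median-ratio scaling (0.0304), quantile normalization (0.0198), the replicate block (0.0473), scaled fragments (0.00673) and DMSO replicate 2 left out (0.0371). The alternatives spanned 0.00673 to 0.161.

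Among other ligand-like proteins 2 of 8 were tested, and Dlk2, a membrane protein related to Delta, rose from 4.46 ± 0.190 to 9.36 ± 1.08 FPKM (0.92, SE 0.10, limma adjusted p = 0.000233). Dlk1, Dner, Mfap2 and Mfap5 were listed at 0 in all 6 libraries. In the remaining Hes and Hey genes, 2 of 8 were tested and both rose, where 28.2% of all tested genes did. Of these, Hes2 reached the filter only through its DHTS values, with means of 0.0113 FPKM with DMSO and 4.37 with DHTS. It could thus enter the test only as a higher gene, so the count is no result about this list. Hes2, a Hes-family repressor gene, was listed at 0, 0 and 0.0340 FPKM in control libraries and reached 5.35, 3.66 and 4.11 FPKM in treated ones. A total of 1 fragment with DMSO and 245 with DHTS gives a ratio of 256 at equal depth, with an exact 95% interval of 45.5 to 10100 that covers counting error only and takes the 2 listed zeros as measured, and the gene passed (limma adjusted p = 1.62e-05). Hes6, which encodes a protein that counteracts Hes1, went from 21.5 ± 0.884 to 27.7 ± 1.24 FPKM (0.35, adjusted p = 0.00212). Hes5 and Helt were listed at 0 in all 6 libraries.

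**Figure D5:**
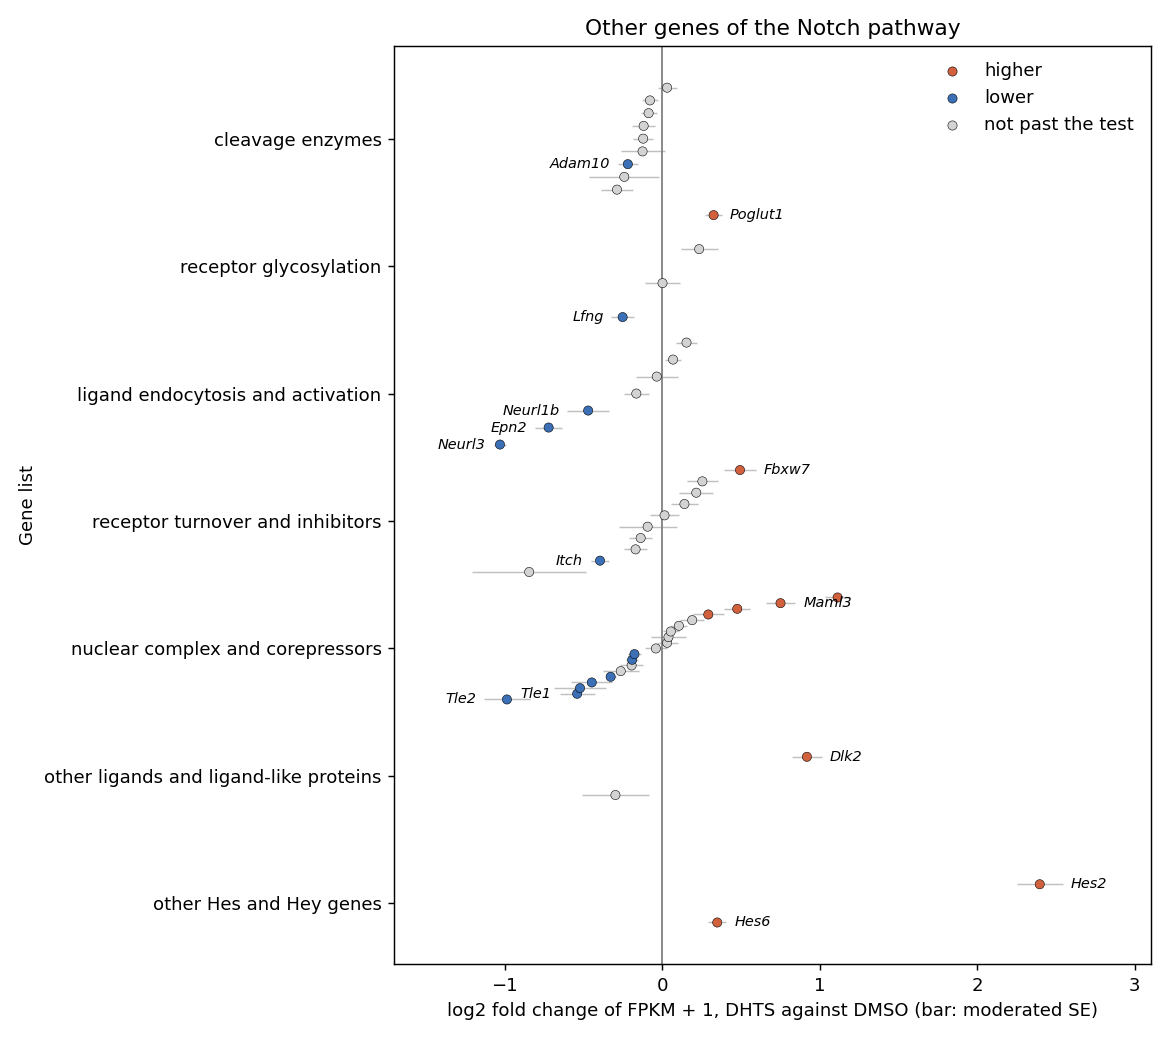
log2 fold change of FPKM + 1 with moderated SE for the 53 tested pathway genes outside the 10, in 7 lists, coloured where the adjusted p was under 0.05. The called genes named in the text, apart from Tle3 and Tle4, are labelled, with Hes2 furthest to the right and Neurl3 and Tle2 furthest to the left.

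The cells were labelled as endothelial, and of 20 endothelial markers 6 were tested. In all, 11, with Cdh5, Kdr and Tek among them, had the value 0 across the DMSO group, and 5 of those had no value above 0 in any library. Since the table also lists Rpl13 at 0 with DMSO, a zero in that group alone does not show that a gene was absent. Unlike Rpl13, these 11 also stayed low with DHTS. Cdh5, Kdr and Tek had DHTS means of 0.0160, 0.0358 and 0.0523 FPKM, and the highest of the 11 was Erg at 0.4825. Pecam1, above 0 in every library, had means of 0.178 FPKM with DMSO and 0.235 with DHTS. The 20 summed to 158 to 164 FPKM with DMSO and 196 to 221 with DHTS, and 4 of the 6 tested rose, while Flt1, a receptor for vascular endothelial growth factors, fell by 1.09 (limma adjusted p = 0.00161). Counts of markers called can be set beside the 28.2% of all tested genes that rose and the 21.9% that fell. Of 8 arterial markers 4 were tested, Efnb2, Nrp1 and Acvrl1 rising and Unc5b falling, and their sum went from 52.4 to 56.1 FPKM to 71.9 to 76.9. Beside the rise of Notch3, a gene typical of mural cells, 10 mural markers summed to 32.05 to 34.6 FPKM with DMSO and to 29.9 to 31.3 FPKM with DHTS. Of these, 3 were tested: Des rose by 2.55, while Pdgfrb fell by 1.13 and Tagln by 0.48. Kcnj8 was listed at 0 throughout and Rgs5 at 0 with DMSO. Epithelial markers numbered 15, of which 11 were tested, 5 rising and 2 falling, with sums of 253 to 259 and 330.4 to 335 FPKM. Krt5 and Grhl2, among these 5, had DMSO means of 0.0399 and 0.969 FPKM, and Acvrl1 and Des had 0.0540 and 0.744. These genes reached the filter only through their DHTS values. They could thus enter the test only as higher genes, so their calls are no result about these lists. Leukocyte markers summed to 14.1 to 15.0 FPKM with DMSO and 7.17 to 12.1 FPKM with DHTS, and of 8 markers 1 of 2 tested fell. The part of any of these in the Notch changes was not tested. In bulk RNA fewer cells of a type and less RNA per cell cannot be told apart.

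By distance over the 6 libraries the genes closest to Notch3 were Trp53inp1, Rhou and Galns. Likeness was the Euclidean distance on log2(FPKM + 1), each gene centred on its DMSO mean, over the tested genes outside all lists. Trp53inp1, a p53-induced gene, stood at a distance of 0.113 and went from 12.2, 13.9 and 12.8 FPKM to 124, 120.2 and 129 FPKM. Adding 1 shrinks the change of Notch3, at a mean of 1.47 FPKM with DMSO, more than that of Trp53inp1. The log2 fold changes of 3.23 and 3.17 are thus close on this scale, but equal ratios are not shown, and Notch3 differed by a factor of 15.1. Rhou (0.152) and Galns (0.162) were listed at 0 in every DMSO library, at 8.43 to 8.61 and at 7.81 to 8.34 FPKM with DHTS, so their distances are set by the pseudocount and by zeros that may not be measured, and no fold or likeness is read from them.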

How the data were processed

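RNA of 6 EOMA libraries, 3 per group, was sequenced after NEBNext library preparation, per the labels' protocols. Per the submitters' processing notes, Cuffdiff 2.2.1, Cufflinks, HISAT2 2.0.4 and fastp 0.20.0 were used with mm10. The sources used here do not state what each did or which annotation was taken. The authors deposited FPKM and, under a heading of counts, a signal of estimated fragments scaled per library. Between 91.4% and 93.0% of the non-zero signal values lay within 0.1 of whole fragments, too few for a count model.

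limma 3.58.1 in R 4.3.3 (trend and robust eBayes, two-sided, treatment only) was run on log2(FPKM + 1) for 11416 genes and checked on simulated fragments. Alternatives were a pseudocount of 0.1, other filters (none, a mean of at least 5 FPKM), other scalings, plain limma, a replicate block, scaled fragments (a mean of at least 10), removal of genes at 0 with DMSO, and each library left out. The genes and lists were chosen with earlier results of these data known. Named were all 10 genes and, per list, up to 4 called genes with the largest change, with Rbpj, Tle3 and Tle4 added. One gene that this rule picks is counted but not reported here. Gene coordinates are from GENCODE M21, counted from 1.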

Additional observations from a re-analysis of the deposited data

How the results depend on the processing

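Notch1, Notch2, Notch3 and Jag2 passed with the same sign in all 15 alternatives, and Jag1 in the 14 in which it was tested. The count of Notch genes higher with DHTS was 3, became 5 on scaled fragments, which bring in Dll1 and Dll4, and ran from 3 to 4 when 1 library was left out. The count lower with DHTS was 2, became 1 at a mean of at least 5 FPKM, where Jag1 is no longer tested, and was 2 without any 1 library. Other pathway genes lower with DHTS numbered 13, 22 on scaled fragments, 19 under quantile normalization and 9 to 14 with 1 library left out. Those higher numbered 9, 13 on scaled fragments, 8 under quantile normalization and 8 to 10 with 1 library left out. Over all tested genes 3218 were higher and 2502 lower (56.3% higher), with 2853 to 2925 and 2176 to 2306 when 1 library was left out, and quantile normalization gave 2551 higher and 3411 lower (42.8% higher). Same-numbered libraries of the 2 groups correlated in their deviations at −0.0451, 0.0634 and 0.0124, and differently numbered ones at −0.0805 to 0.0751. These values give no sign that the numbers pair the libraries, but with 3 per group they cannot exclude it. With a replicate block 3 Notch genes were higher and 2 lower, 9 and 11 other pathway genes, and 3053 and 2384 genes in all. Depth limits Notch4, Dll4 and Hey1, which hold 5 to 24 fragments per library.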
